A study of Homo sapiens with 8 samples.

Results

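Mitosis and centrosome genes held 114 of the 10574 position records in the deposited table of N1-methyladenosine (m1A) sites, in 37 of its 4945 genes. A gene was taken by its name: names of CENP and a letter, PLK1 to PLK4, and names beginning with AURK, BUB, NCAPD, NCAPG, NCAPH, SMC1 to SMC6, CEP and a number, ANAPC, CDC20 to CDC27, CCNA or CCNB and a number, together with TPX2, INCENP, NUSAP1 and PCNT. Each record is 1 base in 1 gene. The study silenced TRMT6 by transfection of small interfering RNA into neuroblastoma cells (siTRMT6, 2 m1A libraries) and compared them with control cells (control, 2 m1A libraries). Whether the controls were transfected is not stated. Poly(A) RNA was fragmented and pulled down with an antibody to m1A, and each of the 4 libraries had an input partner whose values are not used here. The enzyme that makes m1A in tRNA pairs TRMT6, which binds the tRNA, with the catalytic subunit TRMT61A. The labels do not say whether replicates came from separate cultures, so the spread a p-value rests on here may be technical.

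The count columns are named by condition and number and were taken as m1A reads, since the table lists m1A sites. Sample titles name the line SK-N-BE, while the source and cell line fields name SK-N-AS. Both are human neuroblastoma lines. Of 14 noradrenergic markers 11 were listed, MYCN among them, against 3 of 12 mesenchymal markers and none of 7 markers of other cell types. All 5 markers of dividing cells were listed. TRMT6 itself had no listed position, so the silencing could not be checked. Listed reads totalled 40771 (siTRMT6 1), 13812 (siTRMT6 2), 8655 (control 1) and 46007 (control 2). These totals cover listed positions only and are not the depth of the libraries.

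In mitosis, kinetochores built on centromeric chromatin bind spindle microtubules, centrosomes organise the spindle poles, and condensin and cohesin shape and hold the sister chromatids. Polo and Aurora kinases drive entry into mitosis and spindle assembly. The spindle checkpoint holds back the anaphase-promoting complex, a ubiquitin ligase that destroys cyclin B and securin, until every kinetochore is attached. In neuroblastoma, Aurora A is known to stabilise the MYCN protein.

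The base at a listed position could be read where a RefSeq promoter window (GRCh38.p14, 250 bases before to 50 after a gene start) covered it. Of the members this held for ANAPC11, the RING subunit of the anaphase-promoting complex, and ANAPC7, one of its repeat-containing scaffold subunits. Their sites are shown because they are the member sites whose letters could be read, 1 on each strand. Both are written 5′ to 3′ on the strand of the gene, with the listed base in capitals.
ANAPC11: gcgcgtgcgcActggcgtgcg
ANAPC7: gagtcagtgcT
The ANAPC11 site lies at chr17:81891719-81891739 on the plus strand, with the listed base at 81891729, in the 5' UTR, base 17 from the RefSeq start. The ANAPC7 stretch lies at chr12:110403659-110403669 on the minus strand and stops at the listed base, 110403659, because the window ends there, 50 bases from the RefSeq start. The deposited annotation places that base in coding sequence. ANAPC11 had 18 reads in siTRMT6 1 and ANAPC7 had 7 in siTRMT6 1, with 0 listed in the other 3 libraries for both.

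The listed base of ANAPC11 was an A and that of ANAPC7 a T, that is, a U in the transcript. The same split by strand held at every base of the table that was read, with chromosome 8 left out. All 87 readable bases in genes on the plus strand were A, and all 342 in genes on the minus strand were T, so that each of these 429 readings, at 417 sites, was an A on the plus strand of the genome. Read at the number printed in the deposited table, with no step of 1, the 86 readable plus-strand bases held all 4 letters and only 3 were A. The deposited coordinates therefore count from 0, and positions here count from 1. Of the 37 member genes, 26 lay on the plus strand with 100 positions and 11 on the minus strand with 14. Across all records, 7757 lay in plus-strand genes and 2817 in minus-strand genes. Of RefSeq coding genes that match the name pattern and have a promoter entry, 22 of 53 on the plus strand had a listed position (41.5%) and 8 of 50 on the minus strand (16.0%). Over all RefSeq coding genes with an entry these shares were 27.9% and 15.5%. Where the listed letter is a T, the listed base of the transcript is a U and no adenosine, so as listed it cannot be an m1A base of that gene's RNA. For the 14 minus-strand member positions, which include those of CENPB, SMC1A and AURKA, only the ANAPC7 base was readable. Whether the others are also a U could not be read, and whether the listed letter bears on their read counts was not tested.

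Member positions carried few reads each, and the 4 libraries differed widely in listed reads. Members held 471 reads at 43 positions in siTRMT6 1, 124 at 15 in siTRMT6 2, 115 at 11 in control 1 and 500 at 51 in control 2. As a share of each library's listed reads this was 1.16% (95% Wilson interval 1.06 to 1.26) in siTRMT6 1 and 0.898% (0.754 to 1.07) in siTRMT6 2, against 1.33% (1.11 to 1.59) in control 1 and 1.09% (0.996 to 1.19) in control 2. The conditions overlap in this share. The 5 markers of dividing cells had 153 and 26 reads in siTRMT6 1 and 2, against 0 and 171 in control 1 and 2. CCNB1 is among these markers and is itself a member, so marker and member reads are not independent. The part of the markers in the member counts was not tested. Without input values, more methylation, more transcript per cell and more dividing cells cannot be told apart. With 2 libraries against 2, an exact permutation test cannot go below p = 0.333. Intervals cover counting error only, since reads without molecular identifiers are not independent molecules. The median position had 9 reads, as over the whole table, and the highest member position had 32. Of the 37 genes, 18 had reads in 1 library, 12 in 2, 3 in 3, and 4 (INCENP, BUB1B, PLK1 and TPX2) in all 4.

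**Figure D1:**
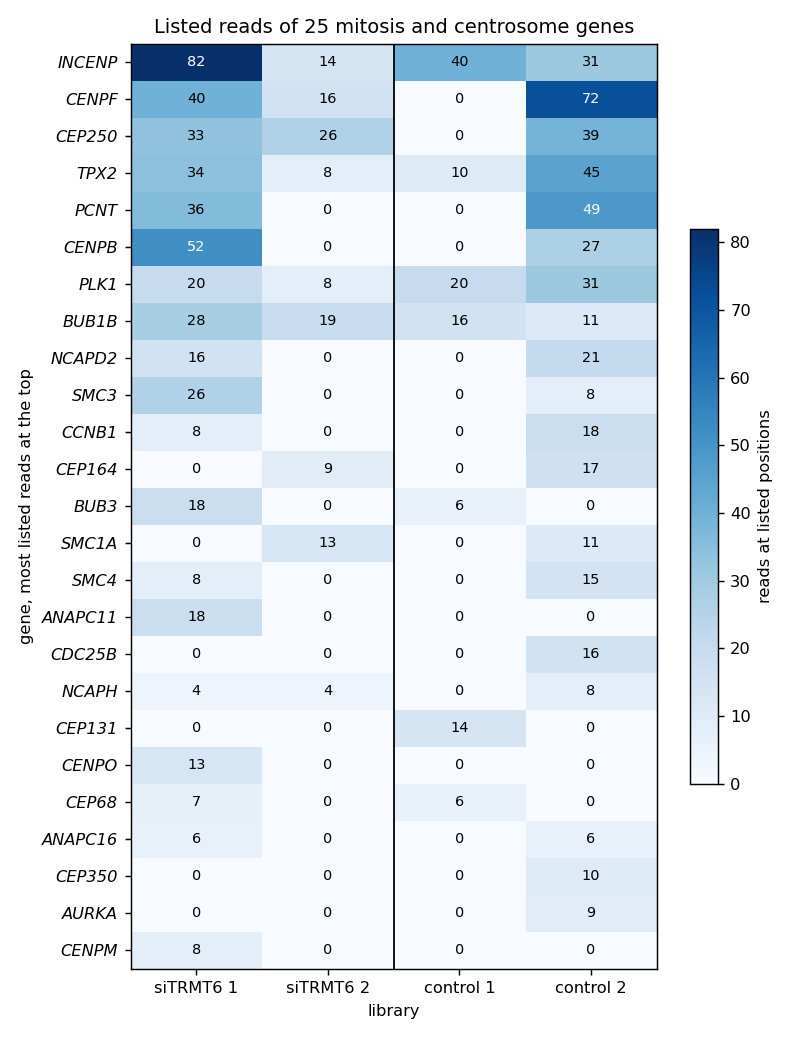
Reads at listed positions, summed per gene, in each of the 4 m1A libraries for the 25 member genes with the most listed reads (rows, most reads at the top; columns, libraries; number and shade, reads). INCENP has the most reads in sum, with 82, 14, 40 and 31, though CEP250 leads in siTRMT6 2 and CENPF in control 2, and most genes below BUB1B have reads in 1 or 2 libraries.

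Among kinetochore and spindle checkpoint genes, 10 had listed positions, with 43 positions and 509 reads, more than any other member group. INCENP, the scaffold of the chromosomal passenger complex that anchors Aurora B at centromeres, had 82 and 14 reads in siTRMT6 1 and 2, against 40 and 31 in control 1 and 2, over 10 positions on chromosome 11. As a share of listed reads this was 0.201% (95% Wilson interval 0.162 to 0.250) and 0.101% (0.0604 to 0.170), against 0.462% (0.340 to 0.629) and 0.0674% (0.0475 to 0.0956). By share the highest and the lowest library were both controls. At 62145747 siTRMT6 1 had 22 reads, and 3 nt on, at 62145750, control 1 had 20. At 62146851 siTRMT6 1 had 21 reads, 57 nt from 62146794 with 14 in siTRMT6 2. At 62145239 control 2 had 22 reads, 4 nt from 62145243 with 20 in control 1. All 10 INCENP positions were in coding sequence, and none had reads in more than 1 library.

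CENPF, a large coiled-coil protein of the outer kinetochore, had 40 and 16 reads in siTRMT6 1 and 2, against 0 and 72 in control 1 and 2, over 12 positions on chromosome 1. Control 2 alone supplied the 4 positions nearest the transcript start, from transcript base 209 to 2202, with 6, 6, 6 and 18 reads. The highest siTRMT6 position was 214646033 with 20 reads in siTRMT6 1. At transcript bases 8229 to 8248, in coding sequence, siTRMT6 2 had 9 reads at 214651786 and siTRMT6 1 had 12 at 214651805. Between them control 2 had 13 at 214651799, all within 20 bases. CENPB, which binds a short motif in centromeric alpha-satellite DNA, had 52 and 0 reads in the siTRMT6 libraries, against 0 and 27 in the controls. In its 5' UTR on chromosome 20, siTRMT6 1 had 26 reads at 3786628 and control 2 had 27 at 3786596, 32 nt apart, and the other 26 reads of siTRMT6 1 lay in coding sequence at 3785510.

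BUB1B, which encodes the checkpoint protein BubR1, had 28 and 19 reads in siTRMT6 1 and 2, against 16 and 11 in control 1 and 2. As a share of listed reads this was 0.0687% (Wilson interval 0.0475 to 0.0992) and 0.138% (0.0881 to 0.215), against 0.185% (0.114 to 0.300) and 0.0239% (0.0134 to 0.0428). In reads both siTRMT6 libraries were above both controls, but by share control 1 was the highest, so the conditions overlap. At 40165126 of chromosome 15, both siTRMT6 libraries had reads, 10 and 6, with 0 listed in the controls, and 7 nt away, at 40165119, control 1 had 9. The authors' deposited table gave the first base a log2 fold change of 4.82 and the second -4.35. BUB1B shares exons with the read-through gene BUB1B-PAK6, so its reads cannot be assigned to 1 of them with certainty. BUB3, which carries the checkpoint kinases to kinetochores, had 18 and 0 reads in the siTRMT6 libraries, against 6 and 0 in the controls, over 4 positions. CENPO, part of the inner kinetochore, had 13 reads in siTRMT6 1 in its 3' UTR, and CENPM, another inner subunit, had 8. CENPA (the centromeric histone H3 variant), CENPE (a kinesin motor) and CENPW each had 5 or 6 reads in control 2. No other library had listed reads for these 5 genes.

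**Figure D2:**
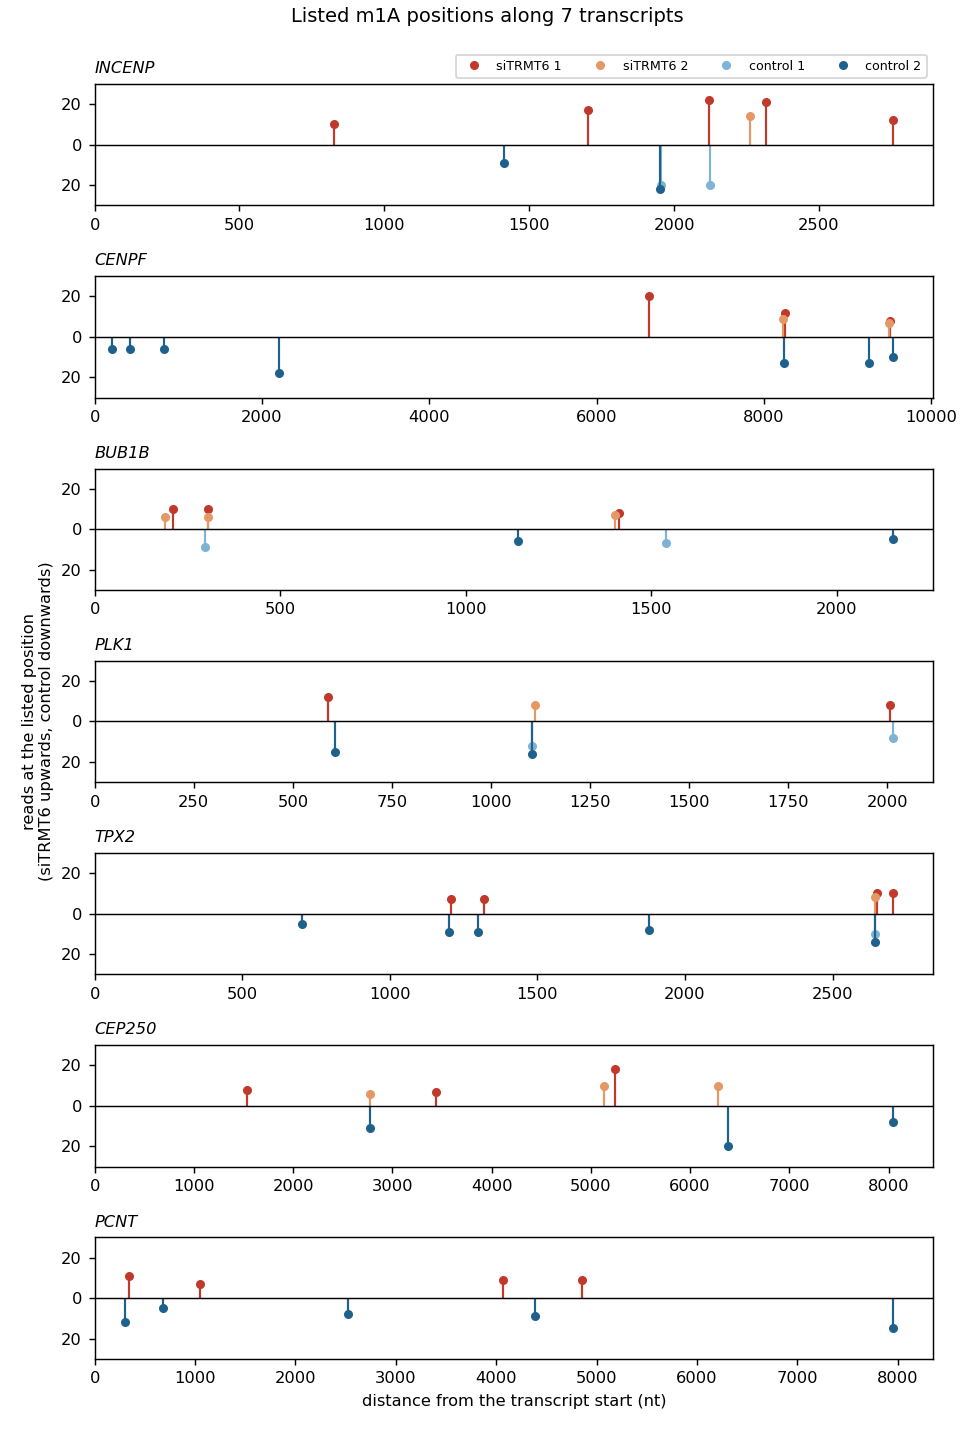
Listed positions along 7 member transcripts (x axis, distance from the transcript start in nt; y axis, reads at the position, siTRMT6 upwards and control downwards; colours, libraries). At several places, such as CENPF at 8229 to 8248 nt and PLK1 at 1103 to 1110 nt, the conditions have reads at neighbouring bases and not at the same base.

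Of the Polo and Aurora kinases, PLK1 and AURKA were listed, and AURKB, AURKC, PLK2, PLK3 and PLK4 were not. PLK1, the Polo kinase of mitotic entry and spindle assembly, had 20 and 8 reads in siTRMT6 1 and 2, against 20 and 31 in control 1 and 2. As a share of listed reads this was 0.0491% (Wilson interval 0.0318 to 0.0758) and 0.0579% (0.0294 to 0.114), against 0.231% (0.150 to 0.357) and 0.0674% (0.0475 to 0.0956). Control 1 stood highest by share, and the intervals of the other 3 libraries overlap. At 23684044 of chromosome 16, in coding sequence, the siTRMT6 libraries had 0 reads listed, against 12 and 16 in control 1 and 2. At 23684051, 7 nt on, siTRMT6 2 had 8 reads. The authors' deposited table gave the first base a log2 fold change of -5.99, with the siTRMT6 sum of 0 set to 0.5. The other neighbouring pairs were closer in reads, with 12 reads in siTRMT6 1 at 23680151 beside 15 in control 2 at 23680169, and, in the 3' UTR, 8 in siTRMT6 1 at 23690145 beside 8 in control 1 at 23690153. AURKA, the Aurora kinase of spindle poles, had 9 reads in control 2 in its 3' UTR at 56370029 of chromosome 20.

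TPX2, which activates Aurora A and nucleates spindle microtubules, had 34 and 8 reads in siTRMT6 1 and 2, against 10 and 45 in control 1 and 2, over 9 coding positions on chromosome 20. Its base 31798535 was the only member base with reads in 3 libraries: 0 and 8 in siTRMT6 1 and 2, against 10 and 14 in control 1 and 2. The missing library, siTRMT6 1, had 10 reads 5 nt on, at 31798540. This was the only stretch of a member gene with reads of all 4 libraries within 200 nt, and the whole table held 13 such stretches. NUSAP1, another microtubule-binding spindle protein, had 7 reads in siTRMT6 1.

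Of 38 RefSeq coding genes in the centrosome group 9 were listed, with 29 positions, 28 of them in coding sequence. CEP250, which links the paired centrioles, had 33 and 26 reads in siTRMT6 1 and 2, against 0 and 39 in control 1 and 2. At 35478065 of chromosome 20 siTRMT6 2 had 6 reads, against 11 in control 2 at the base before it, 35478064. At 35502895 siTRMT6 1 had 18 reads and 116 nt upstream siTRMT6 2 had 10, with no control reads between them. At 35503932 siTRMT6 2 had 10 reads, against 20 in control 2 at 35504029, 97 nt on. PCNT, the pericentrin scaffold of the pericentriolar material, had 36 and 0 reads in the siTRMT6 libraries, against 0 and 49 in the controls, over 9 coding positions on chromosome 21. The closest pair was 11 reads in siTRMT6 1 at 46326552 and 12 in control 2 at 46326520. CEP164, a distal appendage protein needed for cilia, had 0 and 9 reads in the siTRMT6 libraries, against 0 and 17 in the controls.

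The other centrosome genes had 14 reads or fewer each. Over the whole table control 2 had reads at the most records of any library, 4517 of 10574, and control 1 at the fewest, 865. CEP131, a centriolar satellite protein, had 14 reads in control 1, CEP350 had 10 in control 2 over 2 positions, and CEP170 and CEP41 had 8 each in control 2. CEP55, which brings the abscission machinery to the midbody, had 3 and 5 reads in the controls at 1 shared base, 93517222 of chromosome 10, and none listed in siTRMT6. CEP68, a centriole linker protein, had 7 reads in siTRMT6 1 at 65072512 of chromosome 2 and 6 in control 1 at 65072496. The bases of CEP170, NCAPG and CEP164P1 each carried a further entry for a gene on the opposite strand. Reads at these 3 bases cannot be assigned to 1 strand, since strand-specific counting is not stated.

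Condensin, cohesin and related genes had 15 positions in 7 of 13 genes. NCAPD2, a condensin I subunit, had 16 reads in siTRMT6 1 at 6527848 of chromosome 12 and 21 in control 2 at 6527851, 3 nt apart. NCAPH, the condensin I kleisin, had 4 reads in each siTRMT6 library at 96354337 of chromosome 2 and 8 in control 2 at 96341780. SMC3, a cohesin ATPase, had 26 and 0 reads in the siTRMT6 libraries, against 0 and 8 in the controls. Its cohesin partner SMC1A had 0 and 13, against 0 and 11, with the siTRMT6 reads in coding sequence and the control reads in the 3' UTR. SMC4, the condensin ATPase, had 8 and 0, against 0 and 15. NCAPG had 7 reads in control 2, and NCAPH2, of condensin II, had 7 in siTRMT6 2. No gene of this group had listed reads in control 1, which had reads at only 865 of 10574 records over the whole table.

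The anaphase-promoting complex had 4 positions in 3 of 14 genes. Beside ANAPC11 and ANAPC7, the small subunit ANAPC16 had 6 reads in siTRMT6 1 in coding sequence and 6 in control 2 in its 3' UTR. CDC20, CDC23, CDC26 and CDC27 were not listed. Of the cyclins and CDC25 phosphatases, 2 of 8 were listed. CCNB1, the mitotic cyclin, had 8 and 0 reads in the siTRMT6 libraries, against 0 and 18 in the controls. Its siTRMT6 reads lay at 69168009 of chromosome 5, and control 2 had 9 reads at 69168198 and 9 at 69175022. CDC25B, which activates the cyclin-dependent kinase, had 16 reads in control 2 at 3796701 of chromosome 20. CCNA1, CCNA2, CCNB2 and CCNB3 were not listed. Matched by name only were CENPV and the pseudogene CEP164P1, with 6 reads each in control 2. Reads of CEP164P1 may be shared with CEP164.

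By direction, the authors' deposited table called 55 member positions higher and 59 lower in siTRMT6 at an adjusted p below 0.05, all 114. Across all records 49.7% were called higher and 50.2% lower, 100% in all, with no p-value above 0.0478 in the deposited list. Members were thus higher in 48.2% of positions (Wilson interval 39.3 to 57.3), which is near the background. The kinetochore group was higher at 23 of 43 positions, the centrosome group at 12 of 29, condensin and cohesin at 8 of 15, the kinases at 3 of 7, the anaphase-promoting complex at 3 of 4, the cyclins and CDC25 at 1 of 4 and the spindle factors at 5 of 10. Leaving out siTRMT6 1 took the share higher to 19.2%, and leaving out control 2 took it to 83.3%, since each removal takes positions of 1 direction only. Each of the 126 pairs of summed reads in the deposited table had 1 p-value, whichever replicates the reads came from, so the spread between replicates did not enter it.

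Opposite directions stood side by side within genes. Of the 37 genes, 18 had both higher and lower positions, 6 only higher and 13 only lower. Over all 4945 listed genes, 1337 had reads of siTRMT6 only and 1675 had reads of control only. Genes with both were 48.6% of members, against 39.0% of all listed genes. Of 26 pairs of neighbouring member positions within 200 nt, 20 had opposite directions (76.9%), against 75.2% of the 2086 such pairs over all listed genes. Within 20 nt lay 16 of the member pairs, 13 of them opposite (81.2%), against 77.7% over all listed genes. The member shares are near those of all listed genes, and no pair, member or other, had a library in common. In no library did 2 member positions of 1 gene lie closer than 507 nt, and over the whole table no closer than 317 nt. Exactly the same base was shared by libraries at 5 of 114 member positions (4.39%), against 146 of 10574 records (1.38%), a difference that carries no test. The 5 were the PLK1, BUB1B, TPX2, CEP55 and NCAPH bases given above. Counting reads within 20 nt as shared, the number was 33 positions (28.9%), and within 200 nt it was 52 (45.6%).

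Positions of a gene within 200 nt were therefore also joined and their reads summed. This gave 88 member regions, of which 19 in 13 genes held reads of both conditions (21.6%), against 1470 of 8488 regions over the whole table (17.3%). On the scale recovered from the authors' fold changes, which divides by 1.14, their median log2 of siTRMT6 over control was -0.31 (quartiles -0.56 and -0.031). The median over those 1470 regions was -0.34. Scaled by listed reads, each value is 0.19 higher and the medians were -0.12 and -0.15. The member median was -1.06 without siTRMT6 1 (7 regions) and -0.047 without control 2 (7 regions). At least 2-fold differences on the authors' scale occurred in 3 of the 19 member regions (15.8%), against 182 of the 1470 (12.4%). All 3 were lower in siTRMT6: PLK1 at 23684044 to 23684051 with 8 against 28 reads (-1.99), CEP250 at 35503932 to 35504029 with 10 against 20 (-1.18), and CEP250 at 35478064 to 35478065 with 6 against 11 (-1.06). Scaled by listed reads, the 2 CEP250 values were -0.998 and -0.87. The highest were BUB1B at 40165119 to 40165126 with 16 against 9 reads (0.65) and CENPF at 214651786 to 214651805 with 21 against 13 (0.51). Above 0 were 4 of the 19 on the authors' scale (21.1%, against 19.2% of the 1470) and 8 scaled by listed reads (42.1%, against 43.3%). These shares are near those of the whole table. These regions were picked for having listed positions of both conditions and carry no test.

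**Figure D3:**
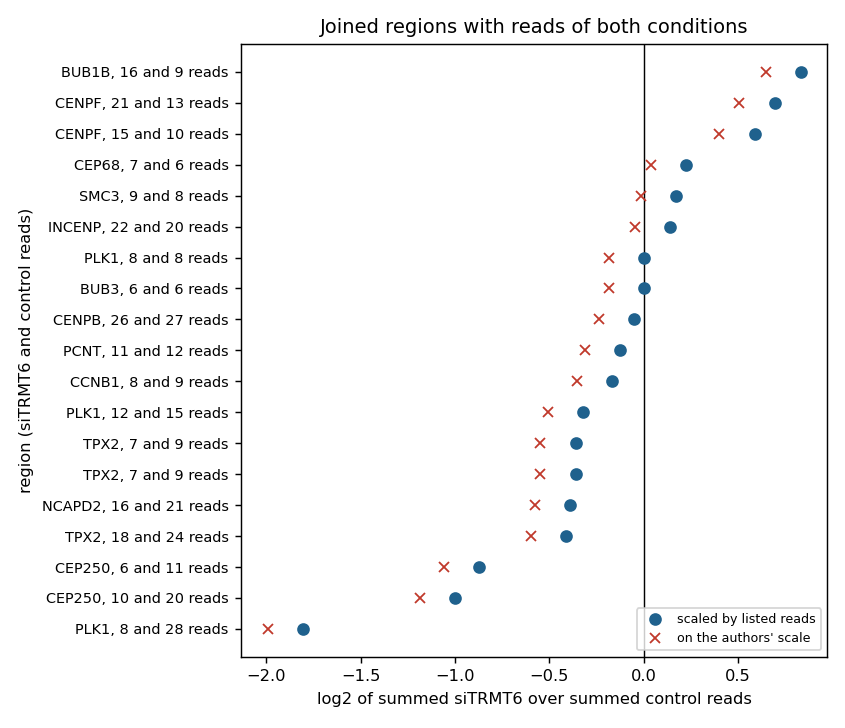
The 19 joined member regions with reads of both conditions (rows, labelled by gene with siTRMT6 and control reads; x axis, log2 of summed siTRMT6 over summed control reads; circles, scaled by listed reads; crosses, on the authors' scale). Values run from -1.81 for a PLK1 region to 0.83 for a BUB1B region on the scale of listed reads.

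Tested as replicates with edgeR's quasi-likelihood test over the whole table, 34 positions passed the filter on low counts, which needs enough reads in at least 2 libraries. Of these 34, 22 (64.7%) were called at a Benjamini-Hochberg adjusted p below 0.05. The deposited list holds no p-value above 0.0478 for this same comparison. Its positions were thus selected before the test, and the share called is no independent support. The calls fell to 0 without the filter on low counts, in DESeq2 (14 at p under 0.05 before adjustment), and with any 1 library left out. Only 1 of the 34 was a member, the TPX2 base 31798535, and it was not called (log2 -1.05, edgeR adjusted p = 0.815, 0.583 to 0.994 over the alternatives). Its unadjusted p was above 0.05 in edgeR and in DESeq2. Without siTRMT6 2, which supplies all its siTRMT6 reads, its fitted log2 was -6.54, a value that depends on the prior count (edgeR adjusted p = 0.610). Without siTRMT6 1 it was -0.021. The PLK1 and BUB1B bases with reads in both replicates of 1 condition did not pass the filter. Summed per gene, 975 genes passed and edgeR called none (0%), with 128 at p under 0.05 before adjustment. DESeq2 called 1 gene, which was no member. Of the 37 members 11 passed, and none had p under 0.05 before adjustment in either tool. Without control 2 there were 2 such members, neither called.

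The 11 tested genes were INCENP, CENPF, CENPB, BUB1B, BUB3, PLK1, TPX2, CEP250, CEP164, PCNT and NCAPD2. Their edgeR log2 values ran from -0.80 in PLK1 to 1.17 in CEP250, 7 above 0 and 4 below, each with an edgeR adjusted p of 0.9997. With DESeq2 size factors, equal library sizes or total listed reads, 5 were above 0 and 6 below, so the split by direction depends on the scaling. The median over these 11 was 0.07 and over all 975 tested genes 0.27. Scaled by total listed reads without further factors, these medians were -0.18 and -0.0088, and CENPF, at 0.07 in edgeR, was -0.013 in DESeq2. Among genes with reads in all 4 libraries, BUB1B had a log2 of 0.81 (0.066 scaled by total listed reads) and PLK1 one of -0.80. Both had that sign under each scaling tried and with any 1 library left out. INCENP had 0.21, but -0.61 when scaled by total listed reads, -0.91 without siTRMT6 1 and -0.12 without control 2. TPX2 had -0.23, but 0.29 without siTRMT6 2 and 0.73 without control 2. None of these genes was called under any of these settings.

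Members, as taken by name, lay in coding sequence more often than listed positions at large. Mitosis and centrosome genes outside the name pattern, described below, had 66.7% of their positions in coding sequence. Coding sequence held 100 of the 114 (87.7%, Wilson interval 80.4 to 92.5), the 3' UTR 8 (7.02%), the 5' UTR 5 (4.39%) and non-coding RNA 1. Over all listed records these shares were 61.7% coding (60.8 to 62.7), 21.1% 3' UTR, 11.3% 5' UTR and 5.89% non-coding RNA. The intervals cover counting error only, since positions of 1 gene are not independent, and the difference carries no test. Strand moved with region. In plus-strand genes 92.0% of member positions were coding against 69.3% of all, and in minus-strand genes 57.1% against 40.8%. The member share was the higher one on both strands, but on the minus strand it rests on 8 of 14 positions in 11 genes. Without the 7 genes that had 6 or more positions, chosen after the values were seen, 40 of 50 member positions were coding (80.0%). Per gene, 32 of 37 members had a coding position (86.5%), against 64.1% of all listed genes. Of the members 36 were RefSeq coding genes, against 4146 of all 4945 listed genes. Members also had more positions per gene, 114 in 37 genes against 10574 in 4945. The per-gene shares were not matched for either. Transcript lengths were not used.

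**Figure D4:**
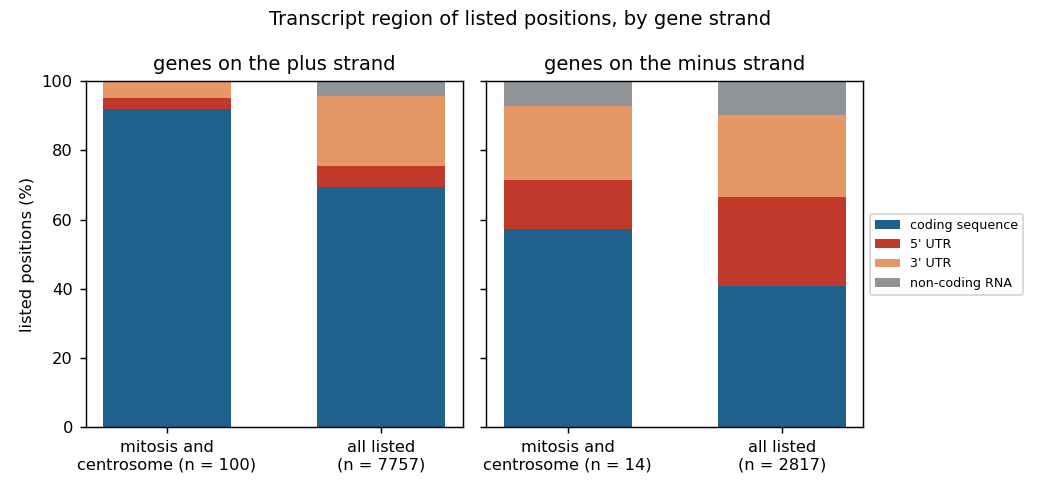
Transcript region of listed positions for member genes and for all listed genes, by the strand of the gene (y axis, percent of positions; colours, region listed first for the base). Coding sequence takes 92.0% of member positions against 69.3% of all on the plus strand, and 57.1% against 40.8% on the minus strand.

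By group, coding sequence held 28 of 29 centrosome positions, 14 of 15 of condensin and cohesin, 37 of 43 of the kinetochore, all 10 of the spindle factors and all 4 of the cyclins and CDC25. It held 4 of 7 kinase positions, the other 3 being in the 3' UTRs of PLK1 and AURKA, and 2 of 4 of the anaphase-promoting complex. The 5 positions in 5' UTRs were those of CENPB (2), BUB1B, BUB3 and ANAPC11. The kinetochore group held 4 of them, 9.30% of its 43 positions (Wilson interval 3.68 to 21.6), against 11.3% of all listed records.

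Mitosis and centrosome genes whose names fall outside the pattern were also often listed, 59 of 132, with 67 positions higher and 62 lower in siTRMT6. Mitotic control genes were listed in 14 of 18 cases, cohesin and chromosome structure genes in 8 of 15, centrosome and spindle pole genes in 19 of 41, spindle and cytokinesis genes in 12 of 27 and further kinetochore and checkpoint genes in 6 of 31. Of RefSeq coding genes that match the name pattern 36 of 116 were listed (31.0%), against 20.7% of all RefSeq coding genes. Among those with a promoter entry, the shares were 41.5% against 27.9% on the plus strand. On the minus strand they were close, 16.0% against 15.5%. Neither expression in these cells nor transcript length was matched. NUMA1, which anchors spindle poles to the cell cortex, had the most reads of this list, 52 and 64 in siTRMT6 1 and 2, against 0 and 52 in control 1 and 2. PCM1, the scaffold of centriolar satellites, had 32 and 7, against 7 and 37. TACC3, a spindle microtubule protein phosphorylated by Aurora A, had 13 and 16, against 13 and 17, as reads not scaled for library totals. KIFC1, a spindle kinesin, had 16 and 10, against 14 and 19. Coding sequence held 66.7% of the 129 positions of this list, against 87.7% of the members' and 61.7% of all. By part it ran from 40.0% of 10 kinetochore and checkpoint positions to 83.9% of 56 centrosome and spindle pole positions.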

How the data were processed

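The submitters' processing notes name FastQC 0.11.3, STAR and build hg38. Not given in the sources used here are the site caller, the counting rule and the authors' test. The deposited table has 4 columns of whole-number counts per site. Per the file headers it also has the authors' log2 fold change and p-value, plain and adjusted. No source states whether input was subtracted, or what a listed 0 stands for. The authors' log2 values equal summed siTRMT6 over summed control counts, a sum of 0 set to 0.5, divided by 1.14. The largest deposited p-value is 0.0478, so unlisted sites are not analysed here.

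Records were made unique per site and gene, with the region listed first. Counts were fitted over all sites and all genes with edgeR 4.0.16 in R 4.3.3 (TMM, filterByExpr with a minimum count of 10, quasi-likelihood test, Benjamini-Hochberg adjustment at 0.05), with DESeq2 1.42.0 as an alternative, after the steps were tested on simulated data. Dispersion was 2.59 for genes. The simulated libraries were of equal size and less dispersed, so that test did not cover counts as uneven as these. Named genes are the 25 with most reads, those tested, those sharing bases or listed in 3 or 4 libraries, the kinases, cyclins, PCNT, INCENP, TPX2 and NUSAP1. The other members, such as CENPA and CEP41, are named once with their reads, outside that rule. Members and lists were chosen with earlier results of these data known.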

Additional observations from a re-analysis of the deposited data

How the results depend on the processing

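Over the whole table, the 22 position calls became 0 without the filter on low counts, 0 with DESeq2 (14 at an unadjusted p under 0.05), 0 with the replicate block, and 0 when any 1 library was left out. For gene totals DESeq2 called 1 and edgeR 0. No member was called under any alternative. The replicate numbers are the only link between same-numbered libraries. Deviations from the group means correlated at -0.094 over the tested genes, and the replicate block called 0 positions and 0 genes. The INCENP gene total was -0.065 with DESeq2 size factors, -0.064 with DESeq2 and -0.61 on total listed reads, and -0.91 to 0.93 over left-out libraries. The TPX2 total ran from -1.11 to 0.73 over left-out libraries. The cause of these reversals was not tested. The share of member positions that were higher ran from 19.2% to 83.3% over left-out libraries, by construction. The coding share was 80.0% without the genes with 6 or more positions, an alternative chosen after seeing the data, and 86.0% to 89.4% under the others. The median of joined regions was -0.12 scaled by listed reads and -1.06 to -0.047 over left-out libraries. Shared bases were 28.9% within 20 nt and 45.6% within 200 nt. Depth limits all of this: a median position rests on 9 reads of 1 library.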

Other observations

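Over the whole table, listed positions in minus-strand genes differed from those in plus-strand genes in where they lay. Of 2817 records in minus-strand genes 25.8% were in 5' UTRs and 40.8% in coding sequence. Of 7757 in plus-strand genes 6.03% were in 5' UTRs and 69.3% in coding sequence. Member positions showed the same order, with 2 of 14 (14.3%) in 5' UTRs on the minus strand and 3 of 100 on the plus strand. These values were looked at after the strand split of the listed base had been seen.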
